A study of Mus musculus with 116 samples.

Results

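The transcription factor NRF2 (gene Nfe2l2) switches on a set of cytoprotective genes, and 10 of its well-known targets were followed here by gene symbol: Nqo1, Gclm, Gclc, Txnrd1, Srxn1, Hmox1, Prdx1, Gsta4, Gstm1 and Txn1. All 10 were found by symbol among the 40202 gene symbols counted in each of 116 RNA-seq libraries. The libraries came from 2 untreated mouse cell lines grown by standard culture: C10, labelled as alveolar type II epithelial cells, and SVEC, labelled as endothelial cells. C10 gave 48 single-cell libraries and a separate input series of 8 libraries of 1 cell, 6 of 3 pooled cells and 6 of 10 pooled cells, and SVEC gave 48 single-cell libraries. Every library was made with nanoSPLITS, a nanodroplet method in which the lysate of a cell is divided so that one portion goes to RNA sequencing and the other to proteomics; only the RNA counts were analysed here. Both are immortalised lines, so a difference between them is a difference between 2 lines, not between 2 tissues.

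In unstressed cells NRF2 is held by KEAP1, an adaptor of a CUL3 ubiquitin ligase, and degraded. Electrophiles and oxidants modify KEAP1, NRF2 then accumulates, pairs with small MAF proteins and binds antioxidant response elements in its target genes, while BACH1 competes for the same elements and represses targets such as Hmox1. The targets fall into working groups: glutathione synthesis (Gclc and Gclm), glutathione conjugation (Gsta4 and Gstm1), the thioredoxin and peroxiredoxin system (Txn1, Txnrd1, Prdx1 and Srxn1), quinone reduction (Nqo1) and haem breakdown (Hmox1). In the lung these genes are known for protection against inhaled oxidants.

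The core of the antioxidant response element is written TGACNNNGC, and a closely related form that also holds an AP-1 site is TGANTCAGC. Both were searched on both strands of the 250 bases before each RefSeq transcript start in GRCm38.p6; 7 of the 10 members have an entry there (Gclc, Gsta4 and Hmox1 do not). These members have 10 windows, as a gene can have several starts. TGACNNNGC was present in 3 of the 10 windows (Gclm, Prdx1 and Txnrd1), beside 10.2% of 32851 windows of the same length over all genes; by gene this is 3 of 7 members, beside 11.5% of 27025 genes. TGANTCAGC was present in 2 of 10 windows (Srxn1 and Prdx1), beside 1.02% of all windows, or 2 of 7 members beside 1.17% of genes, and the Prdx1 match covers the same bases as its TGACNNNGC match. The first 3 sequences below are shown because they hold a match and the last 2 because these members were among the 3 that differed most between the lines; capitals mark the matched bases, all sequences run 5′ to 3′ on the gene's strand, and bases that GENCODE vM21 counts as transcribed were left off the end. They lie at chr4:116685349-116685543 (plus strand) for Prdx1, chr3:122245307-122245556 (plus strand) for Gclm, chr2:152105274-152105515 (plus strand) for Srxn1, chr3:108017974-108018223 (minus strand) for Gstm1 and chr8:107403207-107403455 (minus strand) for Nqo1.
Prdx1: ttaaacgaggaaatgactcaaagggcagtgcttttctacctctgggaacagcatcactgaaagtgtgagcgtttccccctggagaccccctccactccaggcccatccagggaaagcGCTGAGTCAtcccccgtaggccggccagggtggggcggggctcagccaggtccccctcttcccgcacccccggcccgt
Gclm: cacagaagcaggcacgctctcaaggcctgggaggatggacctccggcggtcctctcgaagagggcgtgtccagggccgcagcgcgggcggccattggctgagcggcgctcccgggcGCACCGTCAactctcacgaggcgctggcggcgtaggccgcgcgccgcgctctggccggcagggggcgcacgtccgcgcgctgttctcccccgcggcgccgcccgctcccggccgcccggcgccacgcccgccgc
Srxn1: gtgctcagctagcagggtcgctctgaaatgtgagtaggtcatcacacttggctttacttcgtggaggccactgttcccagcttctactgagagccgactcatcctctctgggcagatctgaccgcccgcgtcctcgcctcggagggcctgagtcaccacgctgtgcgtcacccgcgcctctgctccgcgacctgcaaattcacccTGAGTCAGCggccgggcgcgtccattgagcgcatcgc
Gstm1: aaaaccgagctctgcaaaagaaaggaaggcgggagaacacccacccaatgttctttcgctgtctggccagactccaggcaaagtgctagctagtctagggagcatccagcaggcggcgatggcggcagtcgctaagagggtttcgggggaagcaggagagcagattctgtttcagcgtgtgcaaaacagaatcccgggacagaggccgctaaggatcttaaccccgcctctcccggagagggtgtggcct
Nqo1: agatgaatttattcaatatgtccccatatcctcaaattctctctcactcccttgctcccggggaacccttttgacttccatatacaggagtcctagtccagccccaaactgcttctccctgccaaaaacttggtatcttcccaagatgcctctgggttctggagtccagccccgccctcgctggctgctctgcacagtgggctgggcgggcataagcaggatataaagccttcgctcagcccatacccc
The matched bases begin 133 bases before the RefSeq start of Prdx1, 134 before that of Gclm and 45 before that of Srxn1. The Gstm1 and Nqo1 windows hold neither motif, which says only that these letters are not in these windows. A match describes the sequence and is not evidence of binding in these cells.

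Of the 116 libraries, 2 C10 single-cell libraries with under 1000 gene counts were left out. Total gene counts per library had a median of 1881704 (range 83188 to 5911755) in 46 C10 single cells and 434945 (range 5122 to 2831907) in 48 SVEC single cells. In the input series the totals ran from 430798 to 15385625 at 1 cell, 6889508 to 14018116 at 3 cells and 8313314 to 14778988 at 10 cells. The 1-cell library replicate 1 stood apart with the lowest total, 538 detected genes, 64.6% mitochondrial counts and no count of any member but Gclm (2 counts). The labelled cell types were only partly visible: Sftpa1, Sftpb, Sftpc and Sftpd, which encode the surfactant proteins, were listed at 0 in every C10 and SVEC single cell, and 1 of 12 alveolar type II markers (Etv5) was detected in at least 50% of C10 single cells. Of 17 endothelial markers, none was detected in that many SVEC cells and 9 were at 0, while 5 of 10 mesenchymal markers (Col1a1, Col3a1, Vim, Acta2 and Dcn) were detected in at least 50% of the cells of each line.

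Levels are given as counts per 1000000 gene counts of the library (CPM). For each line the counts were summed over its cells before scaling. The labels name no culture for any cell, so each line is 1 sample: the comparison of lines has no test, a counting interval covers counting error only, and a difference of at least 2-fold is reported as such. The target genes did not share a direction. Gstm1, Nqo1 and Gclc were at least 2-fold higher in SVEC, Gsta4 and Srxn1 were at least 2-fold lower, and Gclm, Txnrd1, Hmox1, Prdx1 and Txn1 differed by less than 2-fold. Those 5 of 10 members compare with 36.8% of 9303 genes that were 2-fold apart in either direction (17.9% higher and 19.0% lower in SVEC), and the median log2 ratio of SVEC over C10 was -0.12 for the members and 0.00 for all genes compared. These ratios use the C10 single cells and depend on that set. In the C10 input series at 1, 3 and 10 cells, summed Hmox1 was at 249, 146 and 174 CPM, beside 41.3 in SVEC. Gsta4 was there at 179, 220 and 164 CPM, beside 56.9 in SVEC. Gclc was there at 2.24, 4.34 and 3.41 CPM, beside 61.0 in SVEC.

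**Figure D1:**
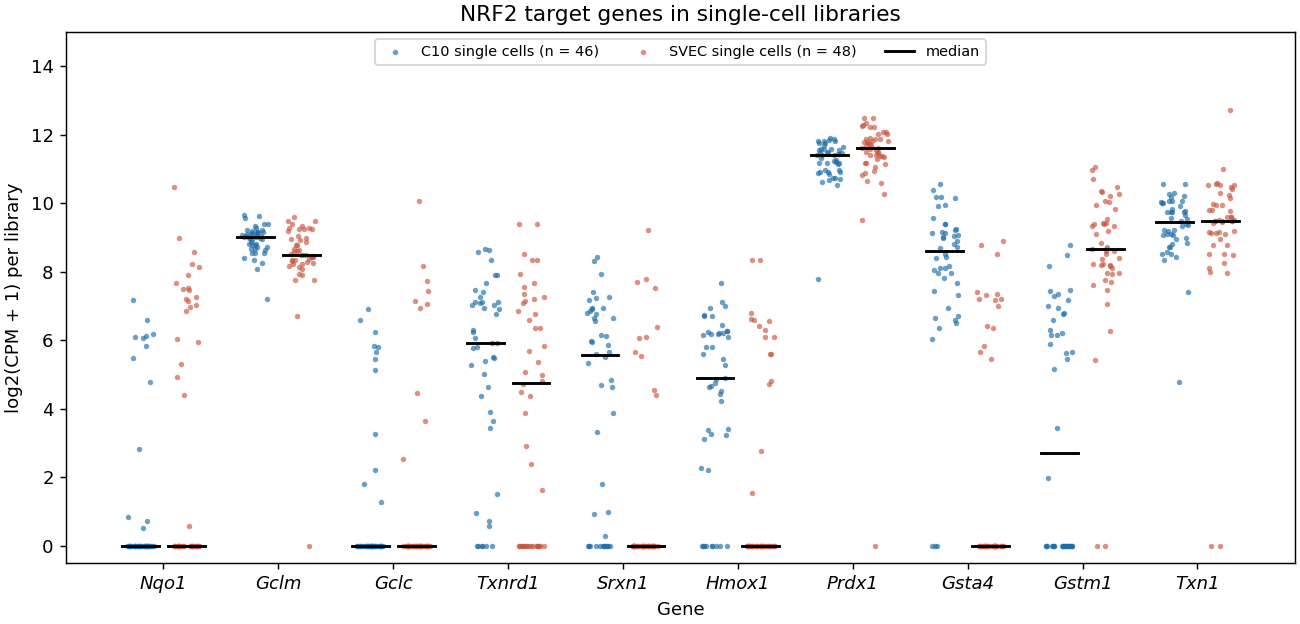
Level of each NRF2 target gene in every single-cell library, as log2(CPM + 1) with 1 point per cell (46 C10 cells in blue, 48 SVEC cells in red, jittered sideways) and a black line at the median. Values are not scaled to gene length, so heights compare lines within a gene. Prdx1, Txn1 and Gclm form compact clouds in both lines, Gsta4 is at 0 in 3 C10 and 33 SVEC cells, and Gstm1 is at 0 in 22 C10 and 2 SVEC cells.

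The largest ratios of summed counts between the lines were those of 2 glutathione S-transferases, enzymes that join glutathione to electrophiles. Gsta4, an alpha-class enzyme known for removing the lipid peroxidation product 4-hydroxynonenal, ranged from 0 through a median of 390 to 1529 CPM in C10 cells and from 0 through a median of 0 to 479 CPM in SVEC cells. Gstm1, a mu-class enzyme with broad substrates, ranged from 0 through 6.39 to 437 CPM in C10 and from 0 through 404 to 2148 CPM in SVEC. The ranges of the lines overlapped for both genes: both lines held cells at 0, and the highest cells of the lower line exceeded the median of the higher line.

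The summed level of Gsta4 was 432.5 CPM for the C10 cells and 56.9 CPM for the SVEC cells, 7.60-fold higher in C10 (log2 ratio of SVEC over C10 -2.93, counting interval -3.00 to -2.86). That of Gstm1 was 61.6 CPM for C10 and 516 CPM for SVEC, 8.38-fold higher in SVEC (log2 ratio 3.07, counting interval 3.02 to 3.11). No single cell decided either value: with each library left out in turn the log2 ratio stayed between -3.22 and -2.82 for Gsta4 and between 2.91 and 3.23 for Gstm1. Gsta4 had a count in 43 of 46 C10 cells (93.5%, exact binomial 95% interval 82.1% to 98.6%) and 15 of 48 SVEC cells (31.3%, interval 18.7% to 46.3%). Gstm1 had a count in 24 of 46 C10 cells (52.2%, interval 36.9% to 67.1%) and 46 of 48 SVEC cells (95.8%, interval 85.7% to 99.5%). Because C10 libraries were deeper, the shares were also taken after drawing each library down to 100000 counts, which left out 1 C10 and 6 SVEC cells: Gsta4 was then found in 42 of 45 C10 and 14 of 42 SVEC cells, and Gstm1 in 24 of 45 and 41 of 42. Drawing down did not level the lines. The median number of genes detected at 100000 counts was 4801 in C10 and 3842 in SVEC cells. This limit holds for every share given at 100000 counts.

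Read within a cell, the 2 genes share that cell's depth. In CPM per kilobase of transcript (kb), the scale used wherever genes are set against each other, Gsta4 exceeded Gstm1 in 40 of 46 C10 cells and in 1 of 48 SVEC cells; Gstm1 exceeded Gsta4 in the other 6 C10 cells and in 45 SVEC cells, and 2 SVEC cells had neither. The same order as in C10 single cells was found in 5 of 8 libraries of the 1-cell input set (1 reversed, 2 with neither), in 6 of 6 libraries of 3 cells and in 6 of 6 of 10 cells. Most cells of the lines lie apart in the plot of these genes against each other.

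**Figure D2:**
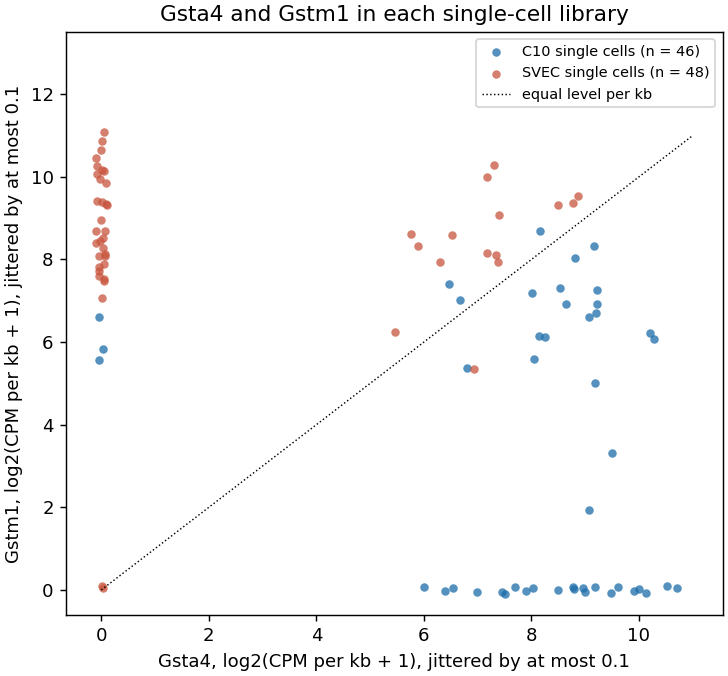
Gstm1 against Gsta4 in each single-cell library, both as log2(CPM per kb + 1), 1 point per cell with a small jitter; the dotted line marks equal levels. Of the C10 cells (blue), 40 of 46 lie below the line, and of the SVEC cells (red), 45 of 48 lie above it.

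Other members of these enzyme classes were read for context, with the limit that close paralogs share sequence and that the handling of reads mapping to several places is not shown by the files. Gstm2 was detected in 46 of 46 C10 and 43 of 48 SVEC cells at 332 and 497 CPM, a difference under 2-fold. Gstp1, the pi-class enzyme, was at 480 and 547 CPM in C10 and SVEC. Gsta3 and Gstm6 were listed at 0 in both lines, and Gsta1, Gsta2 and Gstm3 were under 1 CPM in both.

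Nqo1 encodes the quinone reductase that takes quinones to hydroquinones and is a usual readout of NRF2 activity. It was at 0 in most cells of both lines: C10 cells ranged from 0 through a median of 0 to 144.5 CPM and SVEC cells from 0 through 0 to 1427 CPM. A count was seen in 13 of 46 C10 cells (28.3%, interval 16.0% to 43.5%) and 22 of 48 SVEC cells (45.8%, interval 31.4% to 60.8%), or 9 of 45 and 20 of 42 at 100000 counts. Its summed level was 13.4 CPM for C10 and 96.1 CPM for SVEC, a log2 ratio of 2.85 (7.19-fold higher in SVEC, counting interval 2.75 to 2.94). The highest level was in SVEC replicate 44, replicate 41 held the most counts (20.2% of those in SVEC), and leaving out any 1 library kept the log2 ratio between 2.58 and 3.17. A larger share of SVEC cells had a count. The intervals cover the sampling of cells within a line, so their overlap does not compare the lines, which were not tested. The median level was 55.8 CPM over C10 cells with a count and 149 CPM over such SVEC cells. These medians depend on depth: C10 replicates 14, 15 and 29 had a count at 0.42, 0.64 and 0.78 CPM. In an SVEC library of median depth, 3 counts already mean 6.90 CPM.

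Glutathione is made from cysteine in a first step by glutamate-cysteine ligase, whose catalytic subunit is Gclc and whose modifier subunit is Gclm. Gclm was among the steadiest members. It ranged from 146 through a median of 513 to 813 CPM in C10 and from 0 through 360 to 782 CPM in SVEC, was found in 46 of 46 and 47 of 48 cells, and stood at 505 and 406 CPM in summed counts (log2 ratio -0.32). The cells of the lines overlapped almost throughout, and the C10 cell was the higher of the pair in 69.0% of all pairs of 1 C10 and 1 SVEC cell. GENCODE vM21 places 2 other gene models over the Gclm locus, Gm17494 on the opposite strand and Gm6061 on the same strand, and whether the counting used strand is not given in the sources used here.

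Gclc was rare. A count was seen in 12 of 46 C10 cells and 10 of 48 SVEC cells (26.1%, interval 14.3% to 41.1%, and 20.8%, interval 10.5% to 35.0%), and its highest cell had 120 CPM among C10 and 1080 CPM among SVEC cells. The summed level was 12.7 CPM for C10 and 61.0 CPM for SVEC (log2 ratio 2.26), but 67.3% of the SVEC counts came from replicate 41. Without that cell the log2 ratio was 0.70, a 1.63-fold difference, so the 2-fold difference of Gclc rests on 1 cell. The same cell had the highest Hmox1 level of the SVEC cells (327 CPM) and the second highest Nqo1 level (510 CPM). Per kilobase, Gclm exceeded Gclc in 46 of 46 C10 cells and in 46 of 48 SVEC cells, with replicate 41 the 1 cell in which the order was reversed. The summed level of Gclm was 153 and that of Gclc 3.72 CPM per kb in C10, against 123 and 17.8 in SVEC.

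The thioredoxin system passes electrons from NADPH through thioredoxin reductase (Txnrd1) to thioredoxin (Txn1), which renews peroxiredoxins such as Prdx1 after they reduce a peroxide; sulfiredoxin (Srxn1) rescues peroxiredoxins that have been over-oxidised. Prdx1 was the most abundant member in each line, at 1564 CPM per kb in C10 and 1956 in SVEC. It ranged from 221 through a median of 2729 to 3823 CPM in C10 and from 0 through 3144 to 5801 CPM in SVEC, with summed levels of 2479 and 3101 CPM (log2 ratio 0.32). Txn1 ranged from 26.4 through 696 to 1508 CPM in C10 and from 0 through 718 to 6827 CPM in SVEC, with summed levels of 673 and 712 CPM (log2 ratio 0.08). Neither reached 2-fold, and with TMM scaling, which moved the median log2 ratio of all genes by -0.25, the ratios were 0.08 for Prdx1 and -0.17 for Txn1, the second with its sign turned. Both genes had a count in nearly every cell: 46 of 46 C10 cells for each, 47 of 48 SVEC cells for Prdx1 and 46 of 48 for Txn1.

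Some extremes of these 2 genes lay in libraries that stood apart in other ways. The C10 cell with the least Prdx1, Txn1 and Gclm was replicate 24 in each case, with 30.9% mitochondrial counts, the highest share among the C10 cells. The SVEC cell with no count of Prdx1, Gclm and Txn1 was also a replicate numbered 24, in its own series; it had 95959 counts, 1290 detected genes and 27.5% mitochondrial counts. The highest Txn1 value, 6827 CPM, came from SVEC replicate 20, which held 6591 counts in all. The highest Prdx1 value, 5801 CPM, came from SVEC replicate 14, with 266848 counts and 3.21% mitochondrial counts, a share below the SVEC median. With any 1 library left out the log2 ratio stayed between 0.29 and 0.36 for Prdx1, 0.05 and 0.12 for Txn1 and -0.36 and -0.27 for Gclm. Over all cells the median mitochondrial share was 7.14% in C10 and 4.30% in SVEC, and C10 libraries were the deeper ones; the part of RNA quality and depth in the differences between lines was not tested.

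Txnrd1 ranged from 0 through 59.7 to 409 CPM in C10 cells and from 0 through 26.1 to 675 CPM in SVEC cells, with summed levels of 127 and 95.5 CPM (log2 ratio -0.41). It had a count in 40 of 46 C10 and 31 of 48 SVEC cells, or 33 of 45 and 25 of 42 at 100000 counts. Txnrd1 overlaps 3 other gene models in GENCODE vM21 (Eid3, Gm38560 and Gm47073). Srxn1 ranged from 0 through 46.2 to 344 CPM in C10 and from 0 through 0 to 596 CPM in SVEC. It was found in 34 of 46 C10 cells (73.9%, interval 58.9% to 85.7%) and 11 of 48 SVEC cells (22.9%, interval 12.0% to 37.3%), or 27 of 45 and 9 of 42 at 100000 counts. Its summed level was 69.6 CPM for C10 and 32.8 CPM for SVEC, 2.12-fold lower in SVEC (log2 ratio -1.09). That difference sat at the 2-fold limit: it was 1.97-fold without SVEC replicate 25, and 1.98-fold without C10 replicate 26 or without C10 replicate 27. Of the 4 genes of this system, Srxn1 was the 1 that differed by 2-fold.

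Hmox1, haem oxygenase 1, opens the haem ring to biliverdin, iron and carbon monoxide. Its summed level was 52.3 CPM for C10 and 41.3 CPM for SVEC (log2 ratio -0.34), spread differently over cells. C10 cells ranged from 0 through 28.7 to 202 CPM and SVEC cells from 0 through 0 to 327 CPM, with a count in 37 of 46 C10 cells (80.4%, interval 66.1% to 90.6%) and 16 of 48 SVEC cells (33.3%, interval 20.4% to 48.4%). At 100000 counts the shares were 31 of 45 and 14 of 42. SVEC replicate 41 alone gave 30.1% of the SVEC Hmox1 counts, and without 1 library the log2 ratio ran from -0.80 to -0.24.

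**Figure D3:**
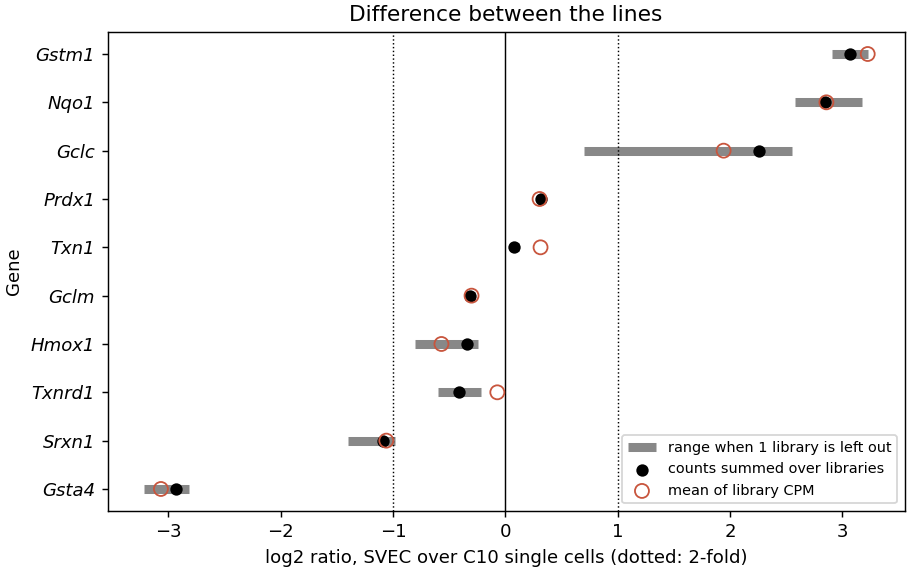
Log2 ratio of SVEC over C10 single cells for each member: black points are counts summed over cells, open red circles the ratio of mean CPM with every cell weighted equally, and grey bars the range when 1 library is left out (for Prdx1, Txn1 and Gclm the bar is hidden by the point). Dotted lines mark 2-fold; Gclc reaches inside them without SVEC replicate 41 and Srxn1 touches the lower one.

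Across members the order of summed levels in C10 single cells was Prdx1 at 1564 CPM per kb, Txn1 at 641, Gsta4 at 443, Gclm at 153, Gstm1 at 58.2, Txnrd1 at 37.0, Hmox1 at 33.3, Srxn1 at 24.8, Nqo1 at 8.61 and Gclc at 3.72. In SVEC it was Prdx1 at 1956, Txn1 at 677, Gstm1 at 488, Gclm at 123, Nqo1 at 61.9, Gsta4 at 58.2, Txnrd1 at 27.8, Hmox1 at 26.3, Gclc at 17.8 and Srxn1 at 11.7. Prdx1, Txn1 and Gclm held the same places in both lines, while Gsta4 took the third place in C10 and Gstm1 in SVEC. Single cells overlapped between all neighbours in these orders. Places 5 and below in SVEC rested on single cells: without replicate 41, Gclc was at 6.06 CPM per kb, below Srxn1 at 12.1, and Nqo1 was at 51.3, below Gsta4 at 57.1. Nqo1 and Gsta4 also changed places without replicate 13, 30, 37, 43 or 44, and Txnrd1 and Hmox1 without replicate 25, 37 or 40. In C10, Txnrd1 and Hmox1 changed places without replicate 20.

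The regulators of the pathway were measured in the same way. Nfe2l2, which encodes NRF2 itself, was at 147 and 259 CPM in C10 and SVEC (log2 ratio 0.82), with a count in 39 of 46 and 33 of 48 cells. The log2 ratio of Nfe2l2 was 0.59 with cells weighted equally. Its median over single cells was slightly lower in SVEC, 116 CPM beside 126 for C10 cells. Keap1, the inhibitor of NRF2, was at 9.09 and 27.1 CPM (log2 ratio 1.58, 1.02 without SVEC replicate 41, the cell that also led in Gclc and Hmox1, and 0.80 with cells weighted equally). Detection of Keap1 ran the other way, with a count in 20 of 46 C10 and 14 of 48 SVEC cells, though C10 libraries were deeper. Its median over single cells was 0 in both lines. Nfe2l1, a related factor that drives proteasome genes and shares antioxidant elements, was at 88.8 and 35.9 CPM (log2 ratio -1.30). In summed counts, Keap1 and Nfe2l1 were the 2 of the 8 regulators with enough detection that were at least 2-fold apart. Cul3 and Rbx1, parts of the ligase, had log2 ratios of 0.39 and 0.18; Sqstm1, which sequesters KEAP1, had -0.48; and the small MAF genes Mafg and Mafk had -0.85 and -0.48, with Mafg at -1.63, past 2-fold, when cells were weighted equally. Bach1 (6 of 48 SVEC and 3 of 46 C10 cells) and Maff (4 and 10 cells) fell under the detection limit of 25% of the cells of a line.

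Other genes of the pathway, taken from lists of the same functions, were counted by direction. The counts compare with 17.9% of all genes at least 2-fold higher and 19.0% at least 2-fold lower in SVEC, and the list medians with 0.00 for all genes. Of the glutathione list, 17 of 25 genes had enough detection, and 1 was at least 2-fold higher and 5 at least 2-fold lower in SVEC. The higher gene was Slc7a11, the cystine importer, at 17.2 and 55.6 CPM in C10 and SVEC. Among the lower genes, Chac1, which breaks glutathione down, was at 223 and 17.6 CPM (12.7-fold lower), with a count in 40 of 46 and 9 of 48 cells. Mgst2, a microsomal glutathione transferase, was at 50.5 and 6.69 CPM (7.55-fold lower), with a count in 37 of 46 and 4 of 48 cells. With 1 library left out the log2 ratio stayed between -4.45 (without SVEC replicate 42) and -3.52 for Chac1 and between -3.48 and -2.77 for Mgst2. The list's median log2 ratio was -0.32.

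For the wider thioredoxin and peroxiredoxin list, 9 of 11 genes were compared, 2 higher and 1 lower in SVEC, with a median log2 ratio of 0.15; of the higher genes, Txnrd2, the mitochondrial thioredoxin reductase, was at the 2-fold limit, with a log2 ratio of 1.05 that went to 0.43 without SVEC replicate 4 and under 1 without SVEC replicate 10, 11, 15 or 31 or C10 replicate 31. The cytosolic and mitochondrial peroxiredoxins Prdx2 and Prdx3 differed by 0.09 and 0.15 on the log2 scale. The lower gene was Sesn2, a stress-inducible sestrin, with a count in 22 of 46 C10 and 2 of 48 SVEC cells. Of the genes that supply NADPH, 5 of 7 were compared, none was higher and 3 were lower in SVEC (median log2 ratio -1.01): Taldo1 at -1.14, Pgls at -1.16 and Me1, malic enzyme, at -1.01 (at the 2-fold limit, which many single cells decided when left out, to -0.87 without SVEC replicate 19).

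Of 16 genes for haem and quinone handling and other functions, 13 were compared, with 4 higher and 2 lower in SVEC (median log2 ratio 0.51). The biliverdin reductase genes Blvrb and Blvra had log2 ratios of 1.64 and 0.02. Hmox2, the constitutive haem oxygenase, had 1.27, and 0.96, under 2-fold, with cells weighted equally. Cbr1, a carbonyl reductase, went from 1.16 to 0.89 without SVEC replicate 13. The other higher gene, Cbr3, was at 0.040 and 6.10 CPM in C10 and SVEC (log2 ratio 7.24, from 6.73 to 7.63 with 1 library left out). It had a count in 3 of 46 C10 and 14 of 48 SVEC cells. Its C10 level lay near the floor of 3 summed counts, 0.030 CPM. Of 4 genes for superoxide and peroxide removal, none was higher and Sod1 was lower (-1.24, median of the list -0.39). With the regulators there were 6 lists, of which 4 held genes past 2-fold in both directions, as the members did; the NADPH and superoxide lists held lower genes only.

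Members were compared with each other over the cells of each line by Spearman's correlation of CPM, given as a description with no p. Over 46 C10 cells the 45 pairs had a median rho of 0.00 (from -0.22 to 0.58), and over 48 SVEC cells 0.04 (from -0.31 to 0.51). The pair Gclm and Txn1 had rho of 0.58 in C10 and 0.45 in SVEC. Prdx1 followed Gsta4 in C10 (rho 0.56) and Gstm1 in SVEC (rho 0.51), that is, the transferase with the higher level in each line. The mean log2(CPM + 1) of the 10 members went with the number of genes detected in the cell (rho 0.60 in C10 and 0.65 in SVEC) and with the total count (rho 0.32 and 0.45). For single members rho with the number of genes detected ran from -0.20 (Prdx1) to 0.37 (Nqo1) in C10 and from -0.19 (Gstm1) to 0.53 (Txnrd1) in SVEC.

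Among the 5 other genes whose levels were most like the members' mean, by the average of the rho within each line among 2938 genes detected in at least 50% of the cells of both, were Poldip3 (0.47), Wls (0.47), Plod2 (0.47) and Sdhd (0.44). The median over those 2938 genes was 0.12. Each of these rho values rests on the same cells and includes their differences in detection.

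In the C10 input series, libraries of 1, 3 and 10 cells were compared, where fewer cells with a transcript and less transcript per cell cannot be told apart. Gclm stood at 4.64, 251, 384, 394, 423, 440, 504 and 652 CPM in the 8 libraries of 1 cell. It stood at 362, 447, 478, 485, 513 and 594 CPM at 3 cells and at 514, 523, 523, 525, 568 and 583 CPM at 10 cells. The libraries of 10 cells lay within the range of the libraries of 1 cell and spanned a far narrower range. Its mean was 382 ± 190 (SD, n = 8), 480 ± 76.2 (n = 6) and 539 ± 28.6 CPM (n = 6).

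That narrowing was not particular to the members. The coefficient of variation was lower at 10 cells than at 1 cell, with replicate 1 left out of the latter, for 10 of 10 members, beside 91.0% of 12154 genes with counts in all 3 groups. For Gclm it went from 0.28 at 1 cell to 0.16 at 3 and 0.053 at 10 cells, and for Txnrd1 from 1.02 to 0.60 to 0.19. In proportion it moved least for Gstm1, from 1.38 to 0.99 to 1.19. For Prdx1 it was lower at 3 cells (0.067) than at 10 (0.14).

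In summed counts Nqo1 was at least 2-fold higher in both sets of pooled libraries than in libraries of 1 cell. In libraries of 1 cell it was at 63.4 CPM in replicate 6, at 0.33 CPM in replicate 10 and 0.15 CPM in replicate 13, and at 0 in the other 5. It was at 0.92, 20.6, 41.9, 52.0, 83.3 and 84.2 CPM at 3 cells and at 0.14, 26.7, 29.9, 30.7, 36.1 and 47.7 CPM at 10 cells. All 12 pooled libraries thus had a count, beside 3 of the 8 libraries of 1 cell. In summed counts it was 11.2 CPM at 1 cell, 46.3 at 3 cells (log2 ratio 2.04) and 26.9 at 10 cells (log2 ratio 1.26). Replicate 6 held 99.3% of the counts at 1 cell, so without it few counts are left and the log2 ratios are 8.98 and 8.20; at 10 cells the difference was 1.93-fold without replicate 2 and 1.99-fold without replicate 13 of the 1-cell set. It was 1.83-fold relative to the median of all genes, whose log2 ratio of 10 cells over 1 cell was 0.39.

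Between 10 cells and 1 cell, 2 of 10 members were at least 2-fold apart, Nqo1 higher and Gstm1 lower (49.6 CPM at 1 cell and 19.9 CPM at 10, log2 ratio -1.31), beside 50.1% of 13372 genes (35.8% higher and 14.2% lower at 10 cells). The Gstm1 difference was 1.53-fold without replicate 14 of the 1-cell set, under 2-fold without replicate 5 of the 10-cell set and 4.11-fold without its replicate 10. Gclc was 1.52-fold higher at 10 cells (3.41 against 2.24 CPM). It was 12.1-fold higher without replicate 2 of the 1-cell set and 2.06-fold higher with libraries weighted equally, and its log2 ratio turned to -0.97 without replicate 9 of the 10-cell set. Between 3 cells and 1 cell, 1 of the 9 members with enough detection, Nqo1, was at least 2-fold apart, beside 45.6% of 11177 genes (27.1% higher and 18.5% lower); Gclc did not reach the detection limit of 50% of the libraries of a group. Hmox1 was 1.71-fold lower at 3 cells than at 1, and 2.06-fold without replicate 6 of the 3-cell set.

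**Figure D4:**
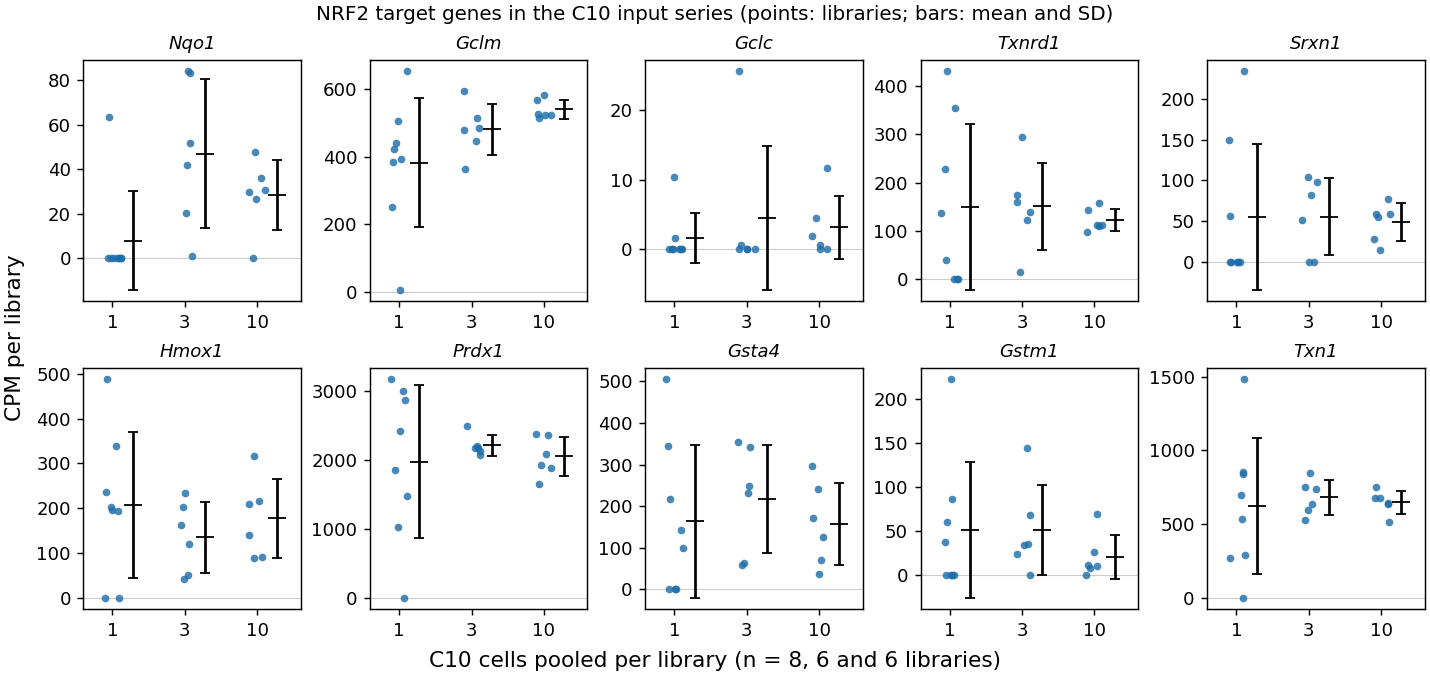
CPM of each member in the C10 input series by the number of cells pooled (8, 6 and 6 libraries); points are libraries, and the bars beside them give the mean and SD. The spread of Gclm, Txnrd1 and Txn1 narrows towards 10 cells, and Nqo1 is at or near 0 in 7 of the 8 libraries of 1 cell.

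The comparison of 10-cell with 3-cell libraries, 6 against 6, could be tested, with the limit that no culture is named and p-values measure only the spread between these libraries. No member passed the threshold in edgeR's quasi-likelihood test with Benjamini-Hochberg adjustment over 13602 genes, and no gene did (0% of genes tested; 1592 had an unadjusted p under 0.05, and DESeq2 gave 564 genes). Prdx1 came nearest: it was at 2077, 2134, 2170, 2180, 2209 and 2497 CPM at 3 cells and at 1651, 1886, 1935, 2090, 2365 and 2380 CPM at 10 cells. The 2 sets overlapped, and the log2 fold change of 10 over 3 cells was -0.25 (SE 0.12, edgeR adjusted p = 0.477). The other 9 members had edgeR adjusted p-values from 0.848 to 0.997. Their log2 fold changes ran from -1.50 for Gstm1 (SE 1.43) to 0.21 for Hmox1 (SE 0.47), with Txn1 at -0.21 (SE 0.16) and Gclm at 0.03 (SE 0.16), so the precision ranged from narrow for the abundant members to wide for the rare ones.

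The series holds 2 sets of C10 single cells, the 8 libraries of the input series and the 46 cells used above, and set and cell culture cannot be told apart. Hmox1 differed most upward between them. It was at 0, 0, 194, 197, 204, 236, 339 and 489 CPM in the input set, where the zeros belong to replicate 1, which stood apart, and to replicate 5. Among the 46 other C10 cells the range was 0 to 202 CPM with a median of 28.7. Leaving out replicate 1, 4 of the 7 input cells lay above all 46, and 1 of the 46 lay above the lowest input cell that had a count. The summed levels were 249 and 52.3 CPM, 4.77-fold higher in the input set (log2 ratio 2.25, from 1.93 to 2.40 with 1 library left out and 2.26 without replicate 1). The pooled libraries of the same series also lay high, with medians of 142 CPM at 3 cells (range 43.3 to 235) and 175 CPM at 10 cells (range 90.1 to 316).

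Gsta4 went the other way, at 179 CPM in the input set and 432.5 CPM in the other C10 cells (log2 ratio -1.27, and -0.76 with TMM scaling, which moves the median of all genes by 0.51). Its medians at 3 and 10 cells, 240.0 and 149 CPM, were also below the 390 CPM of the C10 single cells, though all these ranges overlapped. Gclc was lower in the input set (2.24 against 12.7 CPM, log2 ratio -2.51, and -5.50 without its replicate 2). Txnrd1 was 1.46-fold higher, and 2.08-fold with TMM scaling. In all, 3 of 10 members were at least 2-fold apart between the sets, 1 higher and 2 lower in the input set, beside 52.9% of 12146 genes (24.6% and 28.3%). Prdx1 and Txn1 had log2 ratios of -0.08 and 0.02, from -0.19 to 0.01 and from -0.18 to 0.15 with 1 library left out, and 0.43 and 0.53 with TMM scaling. Single input cells decided whether 2 more members were counted: Gstm1 was 1.24-fold lower in the input set and 2.02-fold without its replicate 14, and Nqo1, 1.19-fold lower, went to 146-fold without its replicate 6, which held nearly all of its counts there. With TMM scaling the signs of both turned, to log2 ratios of 0.20 for Gstm1 and 0.26 for Nqo1. The input set was the deeper one, with a median total of 10157062 against 1881704 counts and a median mitochondrial share of 8.82% against 7.14%, and the part of these in the differences was not tested.

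**Figure D5:**
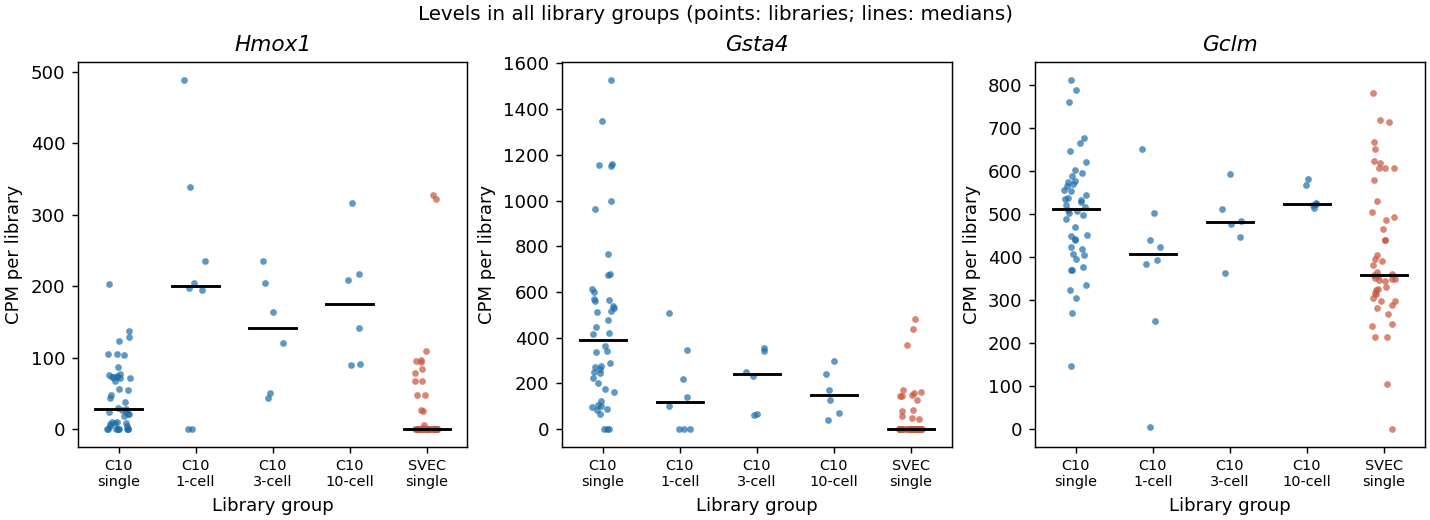
CPM of Hmox1, Gsta4 and Gclm in all library groups, 1 point per library with a line at the median (46, 8, 6, 6 and 48 libraries from left to right). Hmox1 medians are 28.7 in C10 single cells and 201, 142 and 175 in the input series at 1, 3 and 10 cells; Gclm medians are 513, 408, 482, 524 and 360 from left to right.

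The 6 pathway lists were read between the same sets, where 24.6% of all genes were at least 2-fold higher and 28.3% at least 2-fold lower in the input set. Nfe2l2 was at 164 CPM in the input set and 147 CPM in the other C10 cells, and Nfe2l1 at 17.2 and 88.8 CPM (5.18-fold lower in the input set, log2 ratio -2.37, and -3.59 without its replicate 10). Of the regulators, 9 of 10 were compared, with none higher and 2 lower in the input set, Nfe2l1 and Mafg; Mafg had a count in 1 of 8 input libraries (replicate 10) and 29 of 46 other C10 cells. Of the glutathione list, 19 of 25 were compared, with 3 higher and 3 lower; Gpx1, a glutathione peroxidase, was at 1838 and 624 CPM. Of the thioredoxin and peroxiredoxin list, 2 of the 9 genes compared were higher and none lower, with Prdx2 at 870 and 387 CPM (log2 ratio 1.17, and 0.93 without replicate 2 of the input set); the other, Sesn2, went from 1.27 to -0.28 without replicate 10.

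The list that covers haem and quinone handling had 14 of 16 genes compared, with 2 higher and 5 lower in the input set (median log2 ratio -0.33, beside -0.04 for all genes). The lower genes included Hmox2 (-1.04, at the 2-fold limit, and within 2-fold without input replicate 5, 9 or 14 or C10 replicate 14, 28, 31, 36 or 38, at -0.88 for input replicate 9) and Ephx1, an epoxide hydrolase (-1.13, within 2-fold without input replicate 5, 9 or 13, at -0.85 for the last, and -1.72 without replicate 2). The other 3 were Abcc4, Cbr1, found in 0 of 8 input libraries and 16 of 46 other C10 cells, and Abcc1, found in 1 and 19. The higher genes were Aldh2, the mitochondrial aldehyde dehydrogenase (log2 ratio 3.00), and Akr1b3, an aldose reductase (1.19, within 2-fold without replicate 2, at 0.92, or 10). More genes of this list were lower than higher in the input set, as was so over all genes compared (28.3% lower and 24.6% higher). Of the NADPH list, 6 of 7 were compared, with Pgls higher (1.00, at the 2-fold limit, which many single libraries decided when left out, and 0.49 without replicate 5) and Tkt lower; of the superoxide list, Sod2 was higher (1.18, and 0.46 without replicate 13) and Sod1 lower (-1.50).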

How the data were processed

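Each library had 1 deposited file of whole-number read counts per gene symbol; per the labels' protocols, cDNA was made with SMART-Seq v4 Plus and sequenced as single reads of 150 bases, and per the submitters' processing notes FastQC, STAR and HTSeq were used. Their versions, the genome build, the annotation and the strand setting are not given in the sources used here. Reads carry no molecular identifiers. The deposited count of reads aligned to several places is 0 in all 116 files, so how such reads were handled is not shown.

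Counts were scaled to CPM over the gene counts of a library (5 closing counters left out). Between the lines, genes detected in at least 25% of the cells of a line were compared. Within the input series the limit was 50% of the libraries of a group. Between the 2 sets of C10 single cells it was 25% of the libraries of a set. A group below 3 summed counts was set to 3. Sums carry exact Poisson and shares exact binomial (Clopper-Pearson) 95% intervals. The comparison of 10-cell with 3-cell libraries used edgeR 4.0.16 with TMM factors and an adjusted p threshold of 0.05; DESeq2 1.42.0 and limma 3.58.1 were alternatives. Levels per kb use the median GENCODE vM21 basic coding transcript. Doublets were not called, since each library was made from a stated number of cells. Scripts were tested on simulated data. The 10 genes, all named, and the lists were chosen with earlier results of these data known. By rule, list genes are named when the lines differ by 4-fold and 50% of the cells of the higher line have a count, and regulators always. Beside the regulators, this rule named Chac1 and Mgst2. The other list genes, most of those named, were chosen after their values were seen. No 2 files held identical counts. A result for a gene among those most like the members is not reported here.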

Additional observations from a re-analysis of the deposited data

Results flagged for a closer look

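Each member was checked in the input series for a library far from the others of its group. Of 30 groups of values, 5 held one. The nominal number expected, about 1.5, does not apply to groups mostly at 0, where any library with counts is distant. Nqo1 was at 0 in 5 of 8 libraries of 1 cell. Gclc was at 0 in 6 of those 8 and in 4 of 6 libraries of 3 cells. In the 1-cell libraries these were Nqo1 in replicate 6, at 63.4 CPM with the next library at 0.33, Gclc in replicate 2, at 10.4 CPM with the next at 1.51, and Gstm1 in replicate 14, at 223.5 CPM with the next at 86.6. In the 3-cell libraries they were Gclc in replicate 10, at 25.7 CPM with the next at 0.58, and Prdx1 in replicate 5, at 2497 CPM with the next at 2209. In each of the 5 cases the distant library was the highest of its group. In a group mostly at 0, only the highest can be distant.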

How the results depend on the processing

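Over all alternatives 3 to 5 members were at least 2-fold apart between SVEC and C10; Gclc and Srxn1 lost that difference without the single cells named above, and Gclc also fell under the detection limit without any 1 of the 12 C10 cells that held a count. The number of genes 2-fold apart between SVEC and C10 was 3428, 7675 with no detection limit and 1254 at 4-fold. It was 6696 for 10 against 1 cell (3862 at 4-fold), 5099 for 3 against 1 cell (8278 with no limit, 2778 at 4-fold) and 6421 between the sets of C10 cells (3459 at 4-fold). TMM scaling moved the median log2 ratio of all genes by -0.25 between the lines and by 0.51 between the sets of C10 cells, and equal weighting of libraries moved it by 0.21 for 10 against 1 cell and 0.20 for 3 against 1 cell. For 10 against 3 cells, the count of genes past the threshold was 0 with edgeR, limma and every library left out, and 564 with DESeq2 (508 higher, 56 lower); library totals alone moved the median log2 fold change from 0.08 to 0.23. Members not past the threshold that changed sign were Gclm (-0.067 with DESeq2), Gclc (0.46 with limma), Txnrd1 (0.089) and Srxn1 (1.20), both with limma. With 1 library left out the log2 fold change ran from -0.019 (3-cell replicate 10) to 0.11 (3-cell replicate 1) for Gclm, also below 0 at -0.0033 without 10-cell replicate 1, and from -1.86 (10-cell replicate 9) to 4.61 (3-cell replicate 10) for Gclc; the cause was not tested.

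Replicate numbers are shared between the input groups, but the correlation of same-numbered 10-cell and 3-cell libraries was between -0.02 and 0.04, so the numbers were not taken as pairs; 2 of 6 libraries correlated best with their own number. With the replicate number as a block, edgeR called 0 genes (1284 at an unadjusted p under 0.05), and the log2 fold changes of Gclc and Srxn1 were 2.26 and 0.44.

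A library of median depth gives 3 counts at 1.59 CPM among C10 cells and at 6.90 CPM among SVEC cells. For counting error only, a count of 0 in such a library allows levels up to these. Only a portion of each lysate went to RNA sequencing. A 0 can therefore also stand for transcripts that were not captured, at levels these limits do not cover.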
